A study of Mus musculus with 9 samples.

Results

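The protein disulfide isomerases (PDIs) and their oxidases in the endoplasmic reticulum (ER) are described here through 10 genes of the count table: P4hb, Pdia3, Pdia4, Pdia6, Pdia5, Txndc5, Txndc11, Tmx1, Ero1l and Ero1lb. They were chosen by name and function, with earlier results of these data known, and are 10 of the 24060 gene rows. All 10 were in the table and passed the filter on low counts, which 15153 genes passed. In mouse neurons given 10 mM 2-deoxyglucose (2-DG) for 6 h, the RNA of all 10 was higher than in untreated neurons, between 1.29-fold (Tmx1) and 4.87-fold (Pdia4), where 25.7% of all genes tested were called higher. At 1 mM, 9 of the 10 were higher, up to 3.10-fold (Pdia4), against 5.69% of all genes, and Tmx1 did not pass the test. Each of the 10 was also higher at 10 mM than at 1 mM, between 1.22-fold (Tmx1) and 1.57-fold (Pdia4), against 17.5% of all genes.

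PDIs are thioredoxin-fold enzymes of the ER that form, break and rearrange disulfide bonds in secreted and membrane proteins. A PDI that has passed its disulfide to a client is oxidised again by an ERO1 oxidase, which hands the electrons to oxygen and makes hydrogen peroxide. PDI genes are well-known targets of the unfolded protein response. 2-DG resembles glucose, enters the first step of glycolysis and stalls the pathway there, and it also disturbs the addition of mannose-containing sugar chains to proteins in the ER.

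The cells were primary immature neurons taken from mouse embryos at embryonic day 14 and kept for 2 days in vitro, with serum in the medium. A control group was left untreated, a group received 1 mM 2-DG for 6 h and a group received 10 mM 2-DG for 6 h. Each had 3 libraries, and no allele, strain or vehicle is named for any group. The series describes the replicates as independent without saying what was cultured or dissected apart, so the p-values measure the spread between these libraries. The series title names an adaptive ER stress pathway, and the doses are compared here for the enzymes that fold disulfide-bonded proteins within that compartment.

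Gene counts summed to between 40.1 and 48.2 M per library. Rn45s, a ribosomal RNA gene, took 0.960 to 1.05% of them in the control libraries, 0.589 to 0.884% at 1 mM and 0.534 to 0.563% at 10 mM. The labelled cell type was checked against 12 genes of immature neurons, all of which were above 1 CPM, the number of reads on a gene per M counts of its library after scaling, in each group. Their summed level was 7134 to 7397 CPM in the control libraries, 6829 to 7046 CPM at 1 mM and 5892 to 6254 CPM at 10 mM. Of the 12, 4 were lower at 10 mM than in the control. Beside this and the marker counts below, 24.0% of all genes were called lower at 10 mM and 4.34% at 1 mM. Called higher were 25.7% at 10 mM and 5.69% at 1 mM, all against control. The cultures also held RNA of other cells. The summed level of 12 microglia genes was 68.1 to 105 CPM in the control libraries, 33.0 to 41.2 CPM at 1 mM and 33.4 to 50.4 CPM at 10 mM, with P2ry12 below 1 CPM in each group, Aif1 below it at both doses and Cx3cr1 at 1 mM. Of these 12 genes, 8 were lower at 1 mM and 10 at 10 mM than in the control. Progenitor genes summed to 1920 to 2507 CPM in the control libraries, 1620 to 2033 CPM at 1 mM and 1560 to 1901 CPM at 10 mM. Of these 10 genes, Fabp7 and Nes were lower at 1 mM than in the control, and Fabp7, Nes, Eomes and Hes5 at 10 mM, where Fabp7 stood at 0.319-fold of the control and at 107 ± 24.2 CPM against 337 ± 62.0 CPM in the control (SD, n = 3 each). Fibroblast and meningeal genes summed to 154 to 228 CPM in the control libraries, 154 to 231 CPM at 1 mM and 156 to 226 CPM at 10 mM, with 1 of 9 lower at 1 mM and 2 lower at 10 mM than in the control. Astrocyte genes summed to 263 to 340 CPM in the control libraries, 271 to 339 CPM at 1 mM and 258 to 318 CPM at 10 mM, and endothelial and pericyte genes to 34.5 to 47.3 CPM, 34.4 to 44.5 CPM and 30.2 to 38.3 CPM in the same order, with Cldn5, Cdh5 and Tek below 1 CPM in each group. Against control, 1 of the 7 astrocyte genes was lower at 10 mM, and of the 6 endothelial and pericyte genes 1 was lower at each dose and 1 higher at 10 mM. The part of these shifts, and of the Rn45s share, in the results below was not tested. In RNA from whole cultures, fewer cells of a type and less RNA per cell cannot be told apart.

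Positions are given in the mouse build mm10, where the GENCODE M21 annotation (GRCm38) lists all as protein-coding. P4hb lies on the minus strand at chr11:120560298-120573253, Pdia3 on the plus strand at chr2:121413775-121438687 and Pdia4 on the minus strand at chr6:47796141-47813430. Pdia6 lies on the plus strand at chr12:17266545-17284770 and Pdia5 on the minus strand at chr16:35397312-35490873. Txndc5 lies on the minus strand at chr13:38500079-38528824, Txndc11 on the minus strand at chr16:11074911-11134650 and Tmx1 on the plus strand at chr12:70453095-70468040. The oxidase genes are Ero1l (also Ero1a) on the minus strand at chr14:45283087-45318771 and Ero1lb (also Ero1b) on the plus strand at chr13:12565874-12611396. Exons of 4 of these genes share bases with genes on the opposite strand: Pdia3 shares 18 with Catsper2, Pdia6 50 with Atp6v1c2, Txndc11 75 with Snn, and Txndc5 224 with Bmp6 and 311 with Gm31834. Pdia4 shares 14 with the microRNA gene Mir704 on its own strand. The sources used here do not say whether the counting used strand, and reads from these stretches could have come from either gene.

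The 250 bases upstream of the annotated RefSeq starts (GRCm38.p6) were read because most of these genes moved together, and searched on both strands for motifs known from stress-regulated promoters. The ER stress response element (ERSE: CCAAT, 9 bases of any kind, CCACG) was found upstream of Pdia6 and Ero1lb, which is 2 of 10 genes, against 0.113% of the 32851 mouse promoter windows searched. The second form, ERSE-II (ATTGG, 1 base of any kind, CCACG), was found in 0 of 10 against 0.0304%. The unfolded protein response element (UPRE, TGACGTGG, which contains CCACG on its other strand) was found upstream of Txndc11 and of start 3 of Txndc5, against 0.563% of windows, and Txndc11 was the only 1 of 10 when the first listed start of each gene was read. The C/EBP-ATF response element (CARE, TGATGNAA) was found upstream of Txndc5, which is 1 of 10, against 3.45%. At the first listed start of each gene, CCAAT by itself was in 5 of 10 windows against 33.8%. CCACG, which ERSE and UPRE contain, was in 6 of 10 of these windows against 28.3%. It was also upstream of starts 2 and 3 of Txndc5. A match is a description of these letters and not a shown binding site. The stretches below hold the ERSE and UPRE matches in capitals. Those of Pdia6 and Ero1lb stop where the GENCODE gene begins, while those of Txndc11 and Txndc5 lie upstream of a RefSeq start but inside the gene as GENCODE draws it. The window of Pdia4, the gene with the largest rise, is shown with its 3 CCAAT boxes in capitals. This window held no exact match to the other motifs searched. It stops at 47813513, short of the GENCODE gene, which begins at 47813430 on the minus strand. The bases between them were not searched. On the other strand ERSE reads CGTGG first and ATTGG last, as in Ero1lb.
Pdia6, chr12:17266339-17266544, plus strand: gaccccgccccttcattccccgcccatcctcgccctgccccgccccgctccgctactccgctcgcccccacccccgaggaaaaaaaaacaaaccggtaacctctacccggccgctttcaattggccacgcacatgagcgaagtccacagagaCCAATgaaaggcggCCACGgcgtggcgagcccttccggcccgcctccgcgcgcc
Ero1lb, chr13:12565633-12565873, plus strand: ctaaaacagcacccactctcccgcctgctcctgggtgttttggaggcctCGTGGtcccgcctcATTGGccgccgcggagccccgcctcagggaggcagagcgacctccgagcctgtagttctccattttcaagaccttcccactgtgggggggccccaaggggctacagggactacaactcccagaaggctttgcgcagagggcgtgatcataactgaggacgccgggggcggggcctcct
Txndc11, chr16:11134616-11134645, minus strand: tgaagtgtggcTGACGTGGagagtccgggt
Txndc5, chr13:38528034-38528063, minus strand: ggcctcgccgcTGACGTGGcgctagccgcc
Pdia4, chr6:47813513-47813762, minus strand: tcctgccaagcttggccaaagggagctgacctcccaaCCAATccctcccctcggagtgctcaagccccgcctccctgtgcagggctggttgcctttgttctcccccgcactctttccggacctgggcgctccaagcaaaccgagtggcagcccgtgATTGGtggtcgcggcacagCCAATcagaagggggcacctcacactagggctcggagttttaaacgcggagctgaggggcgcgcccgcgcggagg

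The abundant soluble PDIs were P4hb, Pdia3, Pdia4 and Pdia6. Levels are given as CPM scaled by library, for replicates 1, 2 and 3 in turn. Pdia4 encodes a PDI with an additional catalytic thioredoxin domain (ERp72), and it rose most. It measured 132, 135 and 136 CPM in the control libraries, 407, 381 and 462 CPM at 1 mM and 613, 651 and 701 CPM at 10 mM. The 3 doses did not overlap, and the control libraries lay within a few CPM of each other. The fold change was 4.87 at 10 mM against control (log2 2.28 ± 0.074 SE, edgeR adjusted p = 7.68e-09) and 3.10 at 1 mM against control (log2 1.63 ± 0.073 SE, edgeR adjusted p = 2.07e-07).

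Pdia6, a PDI that binds the chaperone BiP and acts on the stress sensor IRE1, measured 194, 177 and 174 CPM in the control libraries, 510.1, 468 and 520.5 CPM at 1 mM and 690.4, 684 and 711 CPM at 10 mM. Its doses did not overlap, and the libraries at 10 mM were close together, with a coefficient of variation of 2.02%. It rose by 1.94 ± 0.058 on the log2 scale at 10 mM (SE, edgeR adjusted p = 4.42e-09) and by 1.46 ± 0.057 at 1 mM (SE, edgeR adjusted p = 9.35e-08), both against control.

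Pdia3 encodes ERp57, which calnexin and calreticulin bring to glycoproteins. It measured 148, 144 and 153 CPM in the control libraries, 315, 294 and 352 CPM at 1 mM and 413, 428 and 478 CPM at 10 mM. The lowest library at 10 mM stood above the highest at 1 mM, and every treated library stood above every control library. Its log2 fold change was 1.57 ± 0.074 at 10 mM and 1.11 ± 0.073 at 1 mM against control (SE).

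P4hb encodes the founding PDI, which is also the beta subunit of collagen prolyl 4-hydroxylase and the small subunit of the microsomal triglyceride transfer protein. It measured 341, 309 and 338 CPM in the control libraries, 535, 492 and 572 CPM at 1 mM and 707, 688 and 766 CPM at 10 mM. Its log2 fold changes were the smallest of the 4 abundant PDIs: it rose by 1.13 ± 0.066 at 10 mM (SE, edgeR adjusted p = 5.14e-07) and by 0.69 ± 0.066 at 1 mM (SE, edgeR adjusted p = 7.57e-05), although its 3 doses did not overlap either.

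**Figure D1:**
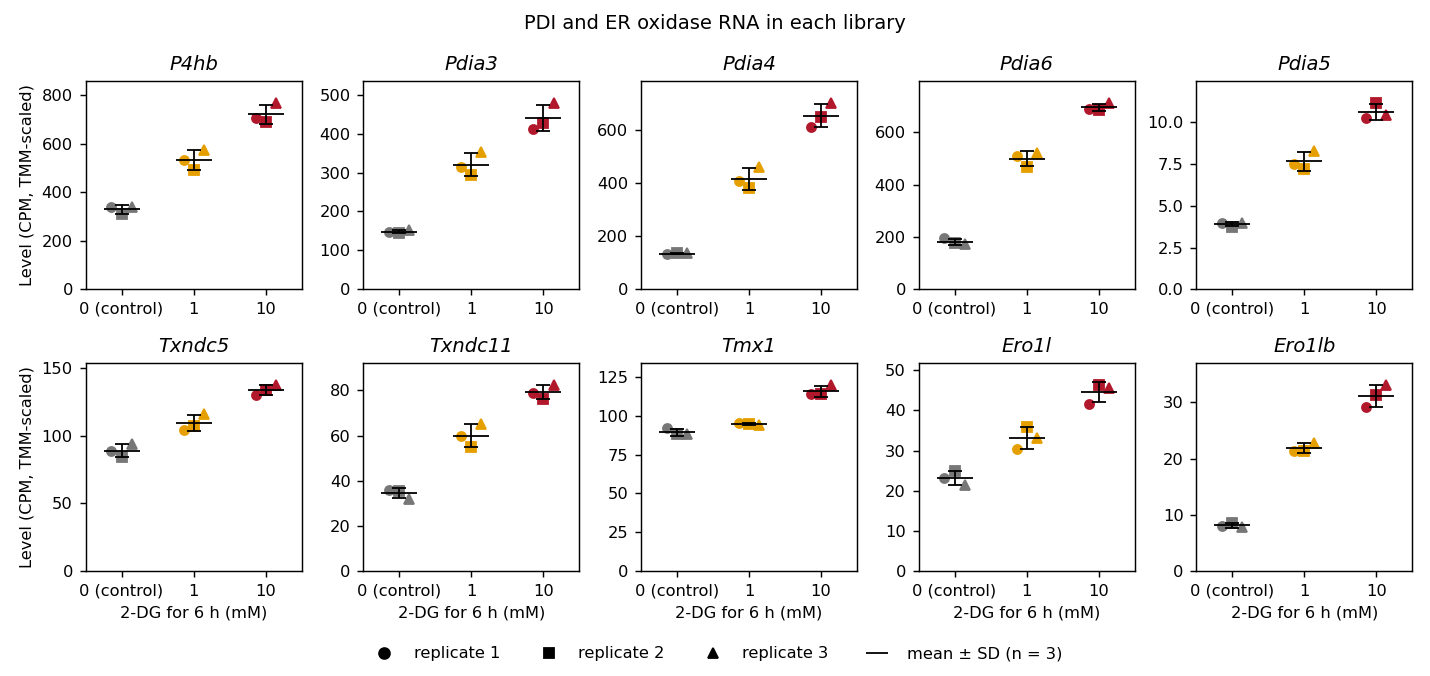
Level of each of the 10 genes in each library, in CPM on an axis from 0, against the 2-DG dose (0 for control, 1 and 10 mM), with the mean ± SD of 3 libraries as lines; marker shapes give the replicate number. For each gene the 3 doses do not overlap, and for Tmx1 the control (88.0 to 91.9 CPM) and 1 mM (94.1 to 95.4 CPM) lie close together.

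Per kb of exon, the remaining PDI genes were at lower levels. Pdia5, a little-studied soluble PDI reported to act on the stress sensor ATF6, measured 3.95, 3.75 and 3.97 CPM in the control libraries, 7.53, 7.20 and 8.31 CPM at 1 mM and 10.3, 11.1 and 10.4 CPM at 10 mM. It had the fewest reads of the 10 genes, 161 to 182 in the control, and its doses did not overlap. Its log2 fold change was 1.45 ± 0.096 at 10 mM (SE, edgeR adjusted p = 1.27e-06) and 0.98 ± 0.097 at 1 mM (SE, edgeR adjusted p = 0.000103) against control.

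Txndc11 encodes a membrane-anchored thioredoxin-domain protein that works with the EDEM mannosidases in ER-associated degradation. It measured 36.0, 35.5 and 32.1 CPM in the control libraries, 59.8, 55.0 and 65.0 CPM at 1 mM and 78.8, 76.4 and 82.4 CPM at 10 mM. Its doses did not overlap, and it rose by 1.20 ± 0.071 on the log2 scale at 10 mM and by 0.80 ± 0.071 at 1 mM against control (SE).

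Txndc5 encodes a soluble PDI with repeated thioredoxin domains (ERp46). Its levels were 88.6, 84.2 and 94.0 CPM in the control libraries, 105, 107 and 116 CPM at 1 mM and 129.9, 134 and 138 CPM at 10 mM. The doses were separate but near each other, and the log2 fold change was 0.59 ± 0.057 at 10 mM (SE, edgeR adjusted p = 1.62e-05) and 0.30 ± 0.057 at 1 mM (SE, edgeR adjusted p = 0.00815) against control. Whether these values include reads of Bmp6 or Gm31834 from the shared exon bases is not known from the sources used here.

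Tmx1 encodes a PDI held in the ER membrane by a single helix, which acts preferentially on membrane-bound clients. It measured 91.9, 88.3 and 88.0 CPM in the control libraries, 95.4, 94.9 and 94.1 CPM at 1 mM and 114, 114 and 119.7 CPM at 10 mM. At 1 mM its 3 libraries lay above the 3 of the control, yet the log2 difference of 0.085 ± 0.043 did not pass the test (SE, edgeR adjusted p = 0.267; adjusted p = 0.0514 with the replicate number as a block). At 10 mM it was higher than in the control by 0.37 ± 0.043 (SE, edgeR adjusted p = 5.29e-05) and higher than at 1 mM by 0.29 ± 0.043 (SE, edgeR adjusted p = 0.000880).

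Per kb of exon, the oxidases were at lower levels than the abundant PDIs. Ero1l encodes ERO1-alpha, the widely expressed oxidase, whose gene is also known to respond to hypoxia. It measured 23.1, 24.9 and 21.5 CPM in the control libraries, 30.4, 35.9 and 33.1 CPM at 1 mM and 41.7, 46.3 and 45.7 CPM at 10 mM. The doses did not overlap, and the log2 fold change was 0.94 ± 0.081 at 10 mM (SE, edgeR adjusted p = 7.45e-06) and 0.51 ± 0.081 at 1 mM (SE, edgeR adjusted p = 0.00271) against control.

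Ero1lb encodes ERO1-beta, the oxidase best known from pancreatic and other professional secretory cells. It measured 8.01, 8.61 and 7.74 CPM in the control libraries, 21.4, 21.4 and 22.8 CPM at 1 mM and 29.1, 31.4 and 33.1 CPM at 10 mM. It was among the members with the largest rises, with a log2 fold change of 1.94 ± 0.080 at 10 mM (SE, edgeR adjusted p = 3.31e-08) and 1.43 ± 0.080 at 1 mM (SE, edgeR adjusted p = 9.31e-07) against control. The window printed above for it carries the ERSE letters on the minus strand, 201 to 183 bases upstream of its start, and that of Pdia6 carries them on the plus strand, 98 to 80 bases upstream.

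The oxidases were also set against each other. Within a library, the ratio of Ero1lb to Ero1l read counts was 0.346, 0.345 and 0.359 in untreated neurons, 0.703, 0.597 and 0.690 at 1 mM and 0.699, 0.678 and 0.724 at 10 mM. This ratio depends on no library scaling, and every treated library stood above every control library. The mean log2 ratio was higher by 1.00 at 10 mM than in the control and by 0.92 at 1 mM than in the control, with an exact permutation p of 0.1 each, two-sided, which is the smallest that 20 arrangements of 3 against 3 libraries allow. Between 10 mM and 1 mM the ratio differed by 0.082 on the log2 scale (exact permutation p = 0.5, two-sided), and the libraries overlapped. These arrangements took no account of the replicate numbers, which pair the libraries.

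**Figure D2:**
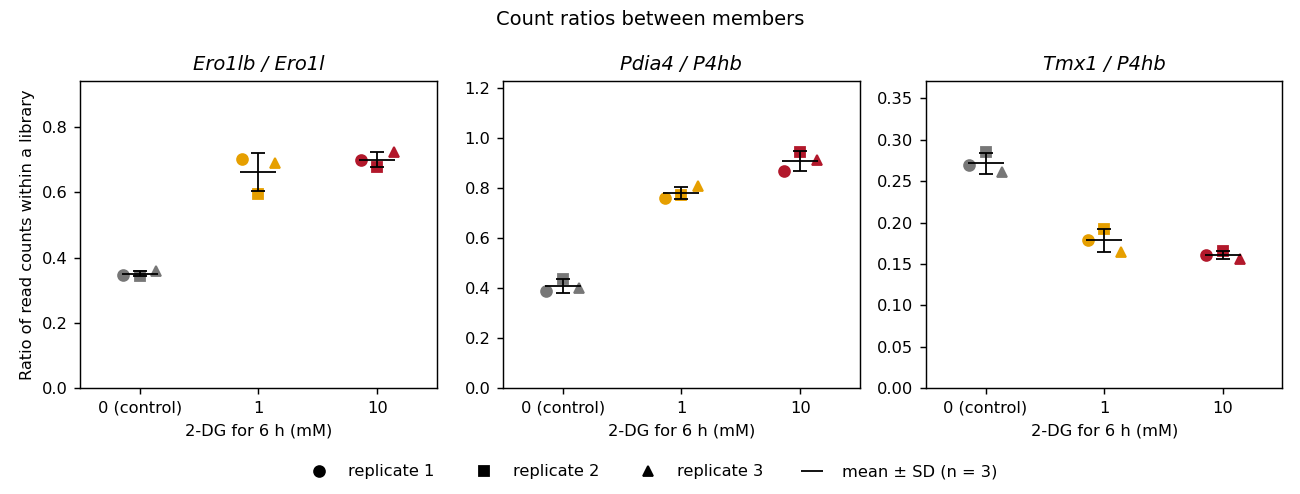
Ratio of the read counts of 2 genes within each library against the 2-DG dose in mM, for Ero1lb over Ero1l, Pdia4 over P4hb and Tmx1 over P4hb, with the mean ± SD of 3 libraries as lines. Ero1lb over Ero1l averages 0.350 in untreated neurons, 0.663 at 1 mM and 0.700 at 10 mM, and Tmx1 over P4hb is lower at both doses than in the control.

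Ratios to P4hb show how the make-up of the family shifted; these ratios were picked after the values were seen and carry no test. Pdia4 reads were 0.409 ± 0.0261 of P4hb reads in untreated neurons, 0.781 ± 0.0240 at 1 mM and 0.909 ± 0.0394 at 10 mM (SD, n = 3 each). Pdia6 reads were 0.552 ± 0.0321 of P4hb reads in untreated neurons, 0.938 ± 0.0248 at 1 mM and 0.966 ± 0.0344 at 10 mM. For Tmx1 the ratio was 0.272 ± 0.0125 in untreated neurons, 0.179 ± 0.0141 at 1 mM and 0.161 ± 0.00453 at 10 mM. Relative to P4hb, reads of both soluble PDIs were thus higher in every treated library than in every control library, and reads of the membrane-bound Tmx1 lower.

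Levels of different genes were compared per length, as CPM per kb of exon in the GENCODE basic annotation. In the control, P4hb stood highest at 115 ± 6.12 CPM per kb, followed by Pdia6 at 83.5 ± 5.07, Pdia4 at 56.0 ± 0.776 and Pdia3 at 53.4 ± 1.64 (SD, n = 3 each). Tmx1 (32.0 ± 0.781 CPM per kb) and Txndc5 (26.5 ± 1.46) came next, and Ero1l (5.25 ± 0.385), Txndc11 (4.27 ± 0.260), Pdia5 (2.15 ± 0.0676) and Ero1lb (1.25 ± 0.0686) were far lower. No neighbours in that order overlapped in the control.

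At 10 mM the order at the top was Pdia6 at 319.7 ± 6.44 CPM per kb, Pdia4 at 273 ± 18.3 and P4hb at 252 ± 14.2, and the ranges of Pdia4 and P4hb overlapped. Pdia3 followed at 159 ± 12.3 CPM per kb. Tmx1 (41.4 ± 1.23) and Txndc5 (39.9 ± 1.15) overlapped, as did Ero1l (10.1 ± 0.569) and Txndc11 (9.80 ± 0.373), and Pdia5 (5.87 ± 0.259) and Ero1lb (4.81 ± 0.306) stayed last. At 1 mM Pdia6 was also highest, at 229.7 ± 12.8 CPM per kb, and P4hb (186 ± 14.0) and Pdia4 (174 ± 17.2) overlapped behind it. With exon lengths of the comprehensive annotation, P4hb led at 1 mM and Pdia4 at 10 mM, and Pdia6 stood behind both at each dose, so the order among these genes depends on the gene model. Ero1l and Ero1lb together made up 1.72 ± 0.160% of the summed CPM per kb of the 10 genes in untreated neurons, 1.37 ± 0.146% at 1 mM and 1.34 ± 0.0585% at 10 mM. Reads on the 10 genes made up 0.107 ± 0.00210% of all gene counts in untreated neurons, 0.213 ± 0.0143% at 1 mM and 0.281 ± 0.0131% at 10 mM.

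Counted together against control, 10 of the 10 genes were higher at 10 mM (edgeR quasi-likelihood test, Benjamini-Hochberg adjusted p below 0.05), where 25.7% of the genes tested were called higher and 49.7% were called in either direction. None was lower by edgeR at an adjusted or an unadjusted p below 0.05 or by DESeq2, while 24.0% of all genes were called lower. Their median log2 fold change was 1.32, with a range of 0.37 to 2.28, beside a median of -0.011 over all genes. The groups overlapped for 0 of the 10 genes, and 29.2% of all genes had every 10 mM library above every control library. Against a minimum fold of 1.5, 8 of the 10 passed, without Txndc5 and Tmx1, where 410 of the 15153 genes tested passed as higher.

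At 1 mM against control, 9 of the 10 were called higher, where 5.69% of the genes tested were called higher and 10.0% were called in either direction. None was called lower, by edgeR adjusted or unadjusted or by DESeq2, against 4.34% of all genes. The median log2 fold change was 0.89 (range 0.085 to 1.63), beside 0.0034 over all genes, and the groups overlapped for 0 of the 10 genes, where 14.7% of all genes had every 1 mM library above every control library. The number of all genes called higher, 862, was 2736 with the replicate number as a block, and 528, 558, 514 and 509 without control replicate 1, control replicate 3, 1 mM replicate 1 and 1 mM replicate 3. The number called lower, 658, was 2770 with the block, and 293, 320, 296 and 338 without the same libraries. The count of 9 of the 10 was the same in each of these fits. Against a minimum fold of 1.5, 5 passed: Pdia3, Pdia4, Pdia5, Pdia6 and Ero1lb. Of the 15153 genes tested, 129 passed that fold as higher.

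Between the doses, 10 of the 10 were higher at 10 mM than at 1 mM, where 17.5% of the genes tested were called higher, 31.2% were called in either direction and 24.4% had every 10 mM library above every 1 mM library. None was lower, by edgeR adjusted or unadjusted or by DESeq2, against 13.7% of all genes. The log2 differences were close together, from 0.29 (Tmx1 and Txndc5) to 0.65 (Pdia4), with a median of 0.45 beside 0.0037 over all genes. None exceeded a minimum fold of 1.5 by edgeR's test against that fold. With the block, 4648 of all genes were called higher in place of 2655, and the 10 members stayed called.

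**Figure D3:**
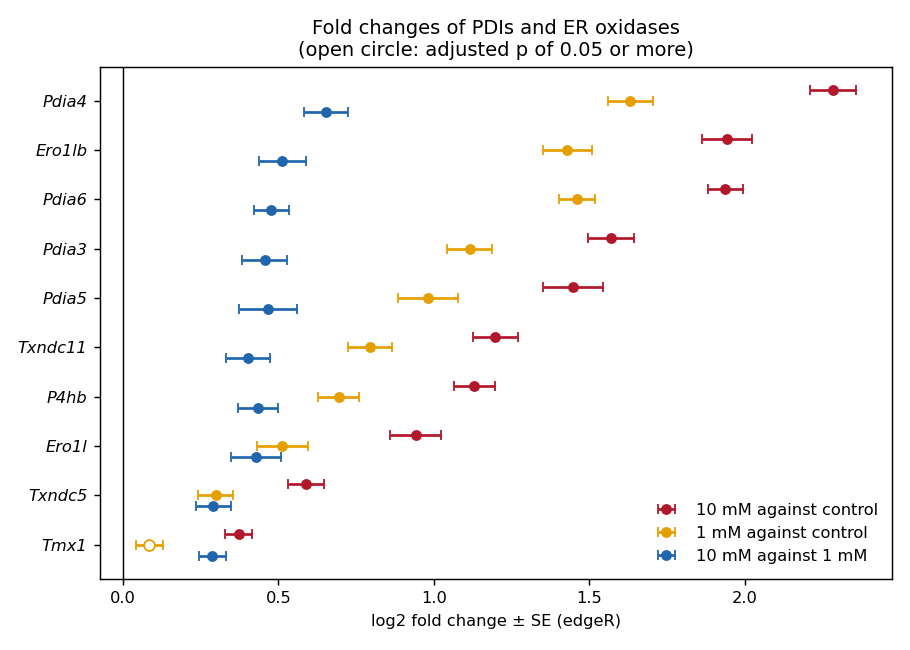
log2 fold change ± SE of the 10 genes in each of the 3 comparisons (edgeR), ordered by the change at 10 mM against control; the open circle did not pass the threshold. Differences from control spread from 0.37 to 2.28 at 10 mM, while differences between 10 and 1 mM lie between 0.29 and 0.65.

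The doses gave different parts of the whole change. The log2 change at 1 mM was 75.4% of that at 10 mM for Pdia6, 73.6% for Ero1lb, 71.4% for Pdia4 and 71.0% for Pdia3, and 50.6% for Txndc5 and 22.8% for Tmx1. These shares use the same control libraries for both doses and are given as descriptions. Across the 9 libraries the members' log2 levels correlated with each other between r = 0.825 (Pdia6 with Tmx1) and 0.999 (Pdia3 with Pdia4), with dose shared by all points. Some treated libraries lay to one side of their group: at 10 mM replicate 1 lay below the group mean for 10 of the 10 genes and replicate 3 above it for 9, and at 1 mM replicate 2 lay below it for 8 and replicate 3 above it for 9. The other libraries, those of the control included, lay above it for 4 or 5 of the 10.

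The genes outside the lists whose log2 level was most like the mean of the 10 members' standardised log2 levels over the 9 libraries were Arl14ep (Pearson r = 0.999), Atp2a2 (0.999), Aldh1l2 (0.998), Rpn1 (0.998) and Nars (0.997), out of 12930 genes with a mean of at least 1 CPM. Atp2a2 encodes the ER calcium pump SERCA2, Rpn1 a subunit of the oligosaccharyltransferase, Aldh1l2 a mitochondrial folate enzyme and Nars the cytosolic asparaginyl-tRNA synthetase. Their log2 fold changes at 10 mM against control were 0.86 for Atp2a2, 1.29 for Rpn1, 2.53 for Aldh1l2, 2.15 for Nars and 2.44 for Arl14ep.

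Other PDI family and ER thioredoxin-domain genes were read as a list of relatives. Of 18 listed, 13 were tested, and Pdia2, Pdilt, Erp27, Agr2 and Agr3 were below the filter on low counts. At 10 mM against control, 9 of the 13 were higher and 0 lower (edgeR; 0 lower also at an unadjusted p below 0.05), with a median log2 fold change of 0.40, where 25.7% of all genes were called higher and 24.0% lower. The 4 that did not pass were Txndc16 (0.20; adjusted p = 8.18e-05 with the block), Dnajc10 (-0.07) and the calcium-binding calsequestrins Casq1 (-0.77) and Casq2 (-0.96), named after their values were seen. Creld2, an ER stress-induced protein with disulfide isomerase activity, rose most, by 2.76 ± 0.062 at 10 mM and 2.00 ± 0.061 at 1 mM against control (SE). Its levels were 26.5, 27.4 and 27.4 CPM in the control libraries, 104, 107 and 115 CPM at 1 mM and 171, 188 and 193 CPM at 10 mM. Erp44, which retains ERO1 in the ER and returns escaped clients, rose by 1.23 ± 0.073 at 10 mM and 0.66 ± 0.073 at 1 mM, and its doses did not overlap.

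Creld1, the membrane-anchored relative of Creld2, rose by 0.88 ± 0.083 at 10 mM and 0.68 ± 0.083 at 1 mM against control (SE), and the membrane PDI Tmx3 by 0.68 ± 0.057 and 0.42 ± 0.057. At 1 mM against control 5 of the 13 were higher and 0 lower, with a median of 0.13. Of all genes, 5.69% were called higher and 4.34% lower there. With the block 8 of the list were higher, where 2736 of the 15153 genes tested were. Between 10 mM and 1 mM, 6 were higher at 10 mM and 1 lower, where 17.5% of all genes were called higher and 13.7% lower. That 1 was Dnajc10, the reductase of ER-associated degradation, named after its values were seen. It averaged 109 ± 10.8 CPM at 10 mM and 129 ± 4.57 CPM at 1 mM (SD, n = 3 each), a log2 difference of -0.24 ± 0.066 (SE, edgeR adjusted p = 0.0180), and the list had 0 lower calls without 10 mM replicate 1 or 10 mM replicate 3. In the control Dnajc10 averaged 114 ± 2.33 CPM. Against control it was -0.07 at 10 mM and 0.17 ± 0.066 at 1 mM, and neither passed (edgeR adjusted p = 0.409 and 0.135). With the block it was higher at 1 mM than in the control (adjusted p = 0.00101). At 10 mM against control the list's 0 lower calls became 1 with the block (Casq1, adjusted p = 0.000492). They were also 1 without control replicate 2, 10 mM replicate 2 or 10 mM replicate 3.

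Enzymes of ER thiol oxidation, peroxide handling and selenoproteins formed the second list. Of 16 listed, 15 were tested and Selenof was not found among the rows. At 10 mM against control 3 were higher and 3 lower, shares of the list below the 25.7% and 24.0% of all genes called, and the median log2 fold change was -0.035. Those higher were Vimp (selenoprotein S, a partner of the degradation machinery) at 1.46 ± 0.083, Selk at 0.44 ± 0.042 and Selt at 0.33 ± 0.051 (SE). Those lower were the ER peroxidases Gpx8 and Prdx4 and, named after its values were seen, Vkorc1. With the replicate number as a block 6 were lower, while the 24.0% is from the fit without it.

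Prdx4, the ER peroxiredoxin that uses hydrogen peroxide to oxidise PDIs, measured 38.6, 33.6 and 40.6 CPM in the control libraries, 32.0, 28.4 and 31.5 CPM at 1 mM and 26.7, 24.4 and 27.1 CPM at 10 mM. It fell by 0.53 ± 0.084 on the log2 scale at 10 mM against control (SE, edgeR adjusted p = 0.000435). At 1 mM against control it was -0.30 ± 0.083 (SE, edgeR adjusted p = 0.0467), a call lost without 1 mM replicate 1, 2 or 3 (adjusted p = 0.0854, 0.127 and 0.0974), without control replicate 1 or 3 (0.145 and 0.175) and without 10 mM replicate 1 or 3 (0.0700 and 0.0635). Gpx8 measured 11.8, 11.9 and 14.5 CPM in the control libraries, 8.67, 7.41 and 9.59 CPM at 1 mM and 5.36, 5.98 and 6.98 CPM at 10 mM. It fell by 1.06 ± 0.137 at 10 mM against control (SE, edgeR adjusted p = 0.000116). At 1 mM it was -0.57 ± 0.134 (SE, edgeR adjusted p = 0.0225), a call lost without 1 mM replicate 1 or 2 or control replicate 3 (adjusted p = 0.0730, 0.0647 and 0.0906). The list's other ER glutathione peroxidase, Gpx7, named after its values were seen, had the opposite sign: it averaged 2.05 ± 0.136 CPM at 10 mM and 1.56 ± 0.252 CPM in the control (SD, n = 3 each), a log2 difference of 0.39 ± 0.158 that did not pass (SE, edgeR adjusted p = 0.0628; adjusted p = 0.0291 with the block).

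At 1 mM against control 2 genes of this list, Vimp and Selk, were higher and 2, Gpx8 and Prdx4, lower. Of all genes, 5.69% were called higher and 4.34% lower. The list had 0 lower without 1 mM replicate 1, 1 mM replicate 2 or control replicate 3. It had 1 lower without control replicate 1, without 1 mM replicate 3, or without replicate 1 or 3 of 10 mM. Selt was 0.11 ± 0.051 at 1 mM against control, and passed with the block (adjusted p = 0.0226). Between the doses 17.5% of all genes were called higher and 13.7% lower. Of this list 3 were higher at 10 mM than at 1 mM, or 1 with library totals alone. With the block 5 were lower, where 3880 of the 15153 genes tested were, and without it 2, Gpx8 and Vkorc1. That fall of Gpx8, -0.49 ± 0.138, was lost without 1 mM replicate 1, 10 mM replicate 1 or 1 mM replicate 3 (adjusted p = 0.0609, 0.0874 and 0.0783), and Prdx4 (-0.23 ± 0.084, adjusted p = 0.0573) passed with the block (adjusted p = 0.000219).

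**Figure D4:**
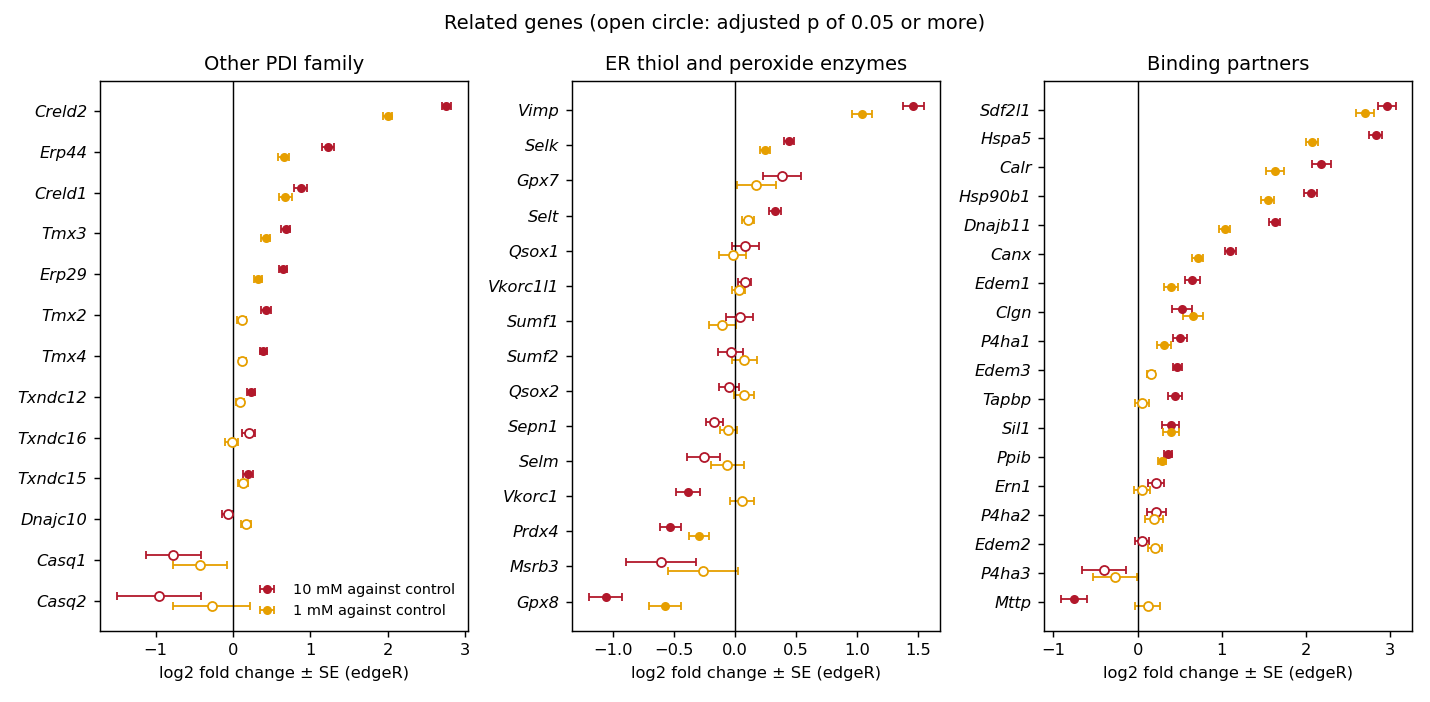
log2 fold change ± SE at 10 mM and at 1 mM against control (edgeR) for the tested genes of 3 related lists; open circles did not pass the threshold. Other PDI family genes and binding partners lie mostly right of 0, with medians of 0.40 and 0.49 at 10 mM, and the ER thiol and peroxide enzymes lie on both sides.

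Proteins that bind the members or form complexes with them were the last list, and all 18 were tested. At 10 mM against control 13 were higher and 1 lower, with a median log2 fold change of 0.49, where 25.7% of all genes were called higher and 24.0% lower. At 1 mM 11 were higher and 0 lower (0 also at an unadjusted p below 0.05), with a median of 0.35, against 5.69% and 4.34% of all genes. The chaperones led: Sdf2l1 rose by 2.96 ± 0.103 at 10 mM and 2.70 ± 0.103 at 1 mM, and Hspa5 (BiP) by 2.83 ± 0.077 and 2.07 ± 0.074, all against control (SE). Hspa5 measured 348, 337 and 354 CPM in the control libraries, 1402, 1349 and 1617 CPM at 1 mM and 2340.0, 2373 and 2664 CPM at 10 mM. Hsp90b1 rose by 2.06 ± 0.079 at 10 mM and 1.55 ± 0.078 at 1 mM.

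The lectins that recruit Pdia3 rose as well, Calr by 2.18 ± 0.111 and Canx by 1.10 ± 0.065 at 10 mM, and by 1.63 ± 0.109 and 0.72 ± 0.065 at 1 mM, against control (SE). Edem2, the mannosidase that forms a disulfide-linked complex with Txndc11, was 0.05 ± 0.083 at 10 mM against control and did not pass (edgeR adjusted p = 0.641). At 1 mM against control it was 0.20 ± 0.082 (adjusted p = 0.162, or 0.000981 with the block). Between the doses it was -0.15 ± 0.082 (adjusted p = 0.187, or 0.00590 with the block). Ern1, the IRE1 gene, was 0.22 ± 0.093 at 10 mM against control (adjusted p = 0.0688, or 0.00331 with the block). Both were named after their values were seen. Between 10 mM and 1 mM, 8 were higher at 10 mM and 1, Mttp, lower, where 17.5% of all genes were called higher and 13.7% lower. With the block 2 were lower, Mttp and Edem2, where 3880 of the 15153 genes tested were. Sdf2l1 was 0.26 ± 0.092 between the doses (adjusted p = 0.0520) and passed with the block (adjusted p = 4.03e-05).

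The list also held the partners of P4hb in the complexes where it is a subunit. P4ha1, a catalytic subunit of collagen prolyl 4-hydroxylase, measured 30.4, 36.9 and 29.6 CPM in the control libraries, 39.6, 42.7 and 38.3 CPM at 1 mM and 43.8, 48.6 and 45.1 CPM at 10 mM. It rose by 0.50 ± 0.087 at 10 mM (SE, edgeR adjusted p = 0.000774). At 1 mM it was 0.31 ± 0.087 (SE, edgeR adjusted p = 0.0452) against control, a call lost without 1 mM replicate 1, 2 or 3 (adjusted p = 0.110, 0.120 and 0.0778), control replicate 1 or 3 (0.158 and 0.161) or 10 mM replicate 1 or 3 (0.0664 and 0.0671). Its difference between the doses, 0.19 ± 0.087, passed with the block (adjusted p = 0.00117). The other catalytic subunits missed the threshold at 10 mM against control and were also named with their values known: P4ha2 was 0.22 ± 0.111 (SE, edgeR adjusted p = 0.120; adjusted p = 0.0386 with the block) and P4ha3 -0.39 ± 0.262 (SE, edgeR adjusted p = 0.236). Mttp, the large subunit of the triglyceride transfer protein, measured 7.13, 6.85 and 8.64 CPM in the control libraries, 6.91, 7.68 and 10.0 CPM at 1 mM and 3.97, 4.70 and 4.75 CPM at 10 mM. It fell by 0.75 ± 0.156 on the log2 scale at 10 mM against control (SE, edgeR adjusted p = 0.00231), while at 1 mM it was 0.12 ± 0.151 and did not pass. Creld1 between the doses was 0.20 ± 0.082 (adjusted p = 0.0919) and passed with the block (adjusted p = 0.000341).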

How the data were processed

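RNA of 9 libraries in 3 groups was sequenced. Per the labels' protocols, cDNA was amplified from total RNA, a stranded library kit with ribosomal RNA depletion was used, and the authors aligned paired-end reads to mm10 with STAR 2.4.0. The submitters' processing notes also name bcl2fastq 2.17 and HTSeq. Which annotation was counted, and whether strand was used, is not given in the sources used here. The authors deposited 1 table of raw read counts per gene with 24061 rows. In it, 1 row names no gene and was left out (at most 0.000216% of a library's counts), and 4 rows share 2 symbols and were not named.

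Genes were filtered (minimum count 10, total 15) and fitted with edgeR 4.0.16 in R 4.3.3: trimmed-mean scaling, a quasi-likelihood F test over all 9 libraries, and Benjamini-Hochberg adjustment over 15153 genes with a threshold of 0.05. The SE is the log2 fold change divided by the square root of F. Each adjusted p in the text is from this test unless another is named. Reads are not independent molecules, so SEs cover counting and the spread between libraries. The script was tested on simulated data. Alternatives were other scalings, no low-count filter, DESeq2 1.42.0, fits to 6 libraries, a minimum fold of 1.5, the replicate number as a block, and leaving out each library.

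Deviations from group means correlated between 0.351 and 0.518 in the 9 pairs of libraries with the same replicate number. The numbers of the titles thus pair the libraries. The 18 others lay between -0.344 and -0.112. Deviations cancel within a group, so these negative values follow from the positive ones and add nothing to them. For the related lists, blocked values stand beside the printed comparisons of named genes whose call they change. They also stand beside counts they move by more than 1.5 times. Calls in comparisons not printed can change as well. Between the doses, Ern1 and Txndc16 passed only with the block (edgeR adjusted p = 0.0214 and 5.88e-05). Libraries of 1 group differed by more than sampling noise (chi-square per degree of freedom 8.91 to 23.4), so none was counted as a duplicate.

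Named genes were all members, the 4 largest rises and 2 largest falls past the threshold at 10 mM of each related list, Hspa5, P4ha1, Calr, Canx and Prdx4, and the 5 genes most alike in level. For the likeness, 0.1 CPM was added before taking log2. Members, lists, tests and rules were chosen with earlier results of these data known.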

Additional observations from a re-analysis of the deposited data

How the results depend on the processing

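Over the 15 alternatives beside the minimum fold, 450 of 450 values of the 10 genes kept their direction and their side of the threshold. Leaving out 1 library at a time, the counts of members higher stayed at 10 (10 mM against control), 9 (1 mM against control) and 10 (10 mM against 1 mM), those lower at 0, and the log2 difference of the Ero1lb to Ero1l ratio ranged from 0.97 to 1.02 at 10 mM and from 0.87 to 0.99 at 1 mM against control. Under the replicate block these differences were 1.00 and 0.92, and no call of a member changed. Against a minimum fold of 1.5 the members higher were 8, 5 and 0, the construction of that test being stricter.

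Over all genes, calls higher and lower numbered 410 and 459 (10 mM against control), 129 and 37 (1 mM against control) and 38 and 33 (10 mM against 1 mM) against a minimum fold of 1.5. With the replicate block they were 2736 and 2770 at 1 mM against control and 4648 and 3880 between doses. Library totals alone gave 1564 higher between doses. At 1 mM against control, leaving out a library gave at least 509 higher and 293 lower. The cause was not tested.

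In the related lists, against a minimum fold of 1.5 the counts higher and lower at 10 mM were 3 and 0 (PDI family), 1 and 1 (thiol and peroxide enzymes) and 6 and 0 (partners), and higher at 1 mM 1, 1 and 5. Between doses none passed that fold by edgeR. Mttp at 1 mM against control turned to -0.050 without 1 mM replicate 3, and ranged up to 0.23 without control replicate 3. The 1 mM calls of Prdx4 and P4ha1 were also lost in a fit to 6 libraries (adjusted p = 0.0769 and 0.0806), Prdx4 also with other size factors and P4ha1 with library totals (0.0648). At this depth Pdia5, with 161 to 182 reads per control library, had the largest counting error of the 10.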
